A study of Mus musculus with 2 samples.

Results

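The muscle, liver and erythroid miRNAs were 8 of the 1881 mouse miRNAs on the array, chosen by name. They comprised 5 muscle miRNAs (mmu-miR-1a-3p, mmu-miR-133a-3p, mmu-miR-133b-3p, mmu-miR-206-3p and mmu-miR-499-5p), the liver miRNA mmu-miR-122-5p and the erythroid miRNAs mmu-miR-451a and mmu-miR-144-3p. They were measured in exosomes from the supernatants of 2 mouse cell lines, with 1 array each. KPC-exosomes came from a pancreatic cancer line established from the tumour of KrasLSL-G12D/+, Trp53LSL-R172H/+, Pdx1-Cre mice, in which Cre under the Pdx1 promoter switches on both mutant alleles in the pancreas. MPDC-exosomes came from a purchased pancreatic ductal epithelial line, for which no genotype was given. The KPC line was grown in RPMI-1640 with 20% foetal bovine serum (FBS) and the MPDC line in DMEM with 10% FBS, and both were moved to medium with FBS cleared of exosomes before supernatants were taken. Genotype, medium and serum share therefore differed together between the groups and cannot be told apart, and each group was 1 line and 1 sample.

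The study applied these exosomes to myotubes of the mouse muscle line C2C12, and the question here is whether the vesicles themselves carried muscle or serum-type miRNAs. MicroRNAs guide Argonaute proteins to mRNAs through their seed, and a few are largely restricted to 1 cell type. The muscle set, often called myomiRs, sits in the myogenic programme: miR-1 and miR-133 are made in skeletal and heart muscle, miR-206 in skeletal muscle, and miR-499 within a myosin heavy chain gene. By seed they fall into families, miR-1 with miR-206 and miR-133a with miR-133b. miR-122 makes up much of the miRNA of hepatocytes. miR-451a and miR-144 are made from a shared transcript in red cell precursors, and miR-451a is a common miRNA of blood and serum whose maturation bypasses Dicer.

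RefSeq mature sequences (GRCm38.p6) were matched for 5 of the 8 members. They are shown because the seed, bases 2 to 8 and here in capitals, sets which mRNAs a miRNA can pair with. It separates the muscle members shown here from each other and from the erythroid pair. mmu-miR-1a-3p and mmu-miR-133a-3p, which belong to the families of miR-206 and miR-133b, had no matched sequence.
mmu-miR-206-3p: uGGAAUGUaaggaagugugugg
mmu-miR-133b-3p: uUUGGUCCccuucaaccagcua
mmu-miR-499-5p: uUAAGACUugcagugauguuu
mmu-miR-451a: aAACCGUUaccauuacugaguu
mmu-miR-144-3p: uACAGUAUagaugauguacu

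No seed was shared among these 5. mmu-miR-206-3p lies at chr1:20679055-20679076 and mmu-miR-133b-3p at chr1:20682834-20682855, on the plus strand, and their precursor genes, 3686 bases apart, overlap the long non-coding RNA gene Lincmd1. mmu-miR-499-5p lies at chr2:155622893-155622913 on the plus strand, within the gene Myh7b, a myosin heavy chain. mmu-miR-144-3p (chr11:78073047-78073066) and mmu-miR-451a (chr11:78073186-78073207) lie on the plus strand with 99 bases between their precursor genes.

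Each member had 2 probes, a shorter one and one that was longer by 1 base, each printed as 15 spots. A probe counted as detected when its total signal exceeded 3 times the error that the scanning software gave it, and the detected probes of a miRNA were summed. Signals are intensities in arbitrary units, and "±" below is that scanner error, which covers the spots of 1 array and not replicate samples. With 1 array per group there was no replicate check and no test. Spots are repeats within 1 array, and the share of all probes whose spots failed to overlap between the arrays was not computed. Signals of different miRNAs come from different probes and were not set against each other. No spot of a miRNA was saturated on either array.

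Over the whole array, 772 miRNAs were detected in KPC-exosomes, 1031 in MPDC-exosomes and 726 in both groups. Of those 726 shared miRNAs, 81.4% had the lower signal in KPC-exosomes, with a median log2 difference (KPC-exosomes minus MPDC-exosomes) of -1.37 before normalization and 0.53 after it. The 4 spike-in controls detected on both arrays differed by -0.31 to 0.38 on the log2 scale. All 7 epithelial miRNAs listed as a check of the cell type were detected in MPDC-exosomes and 5 of them in KPC-exosomes. Their summed signals before normalization were 1781 and 98.8, of which mmu-miR-200c-3p alone gave 991 and 4.58. After quantile normalization 4 of the 7 were at least 2-fold lower in KPC-exosomes, with upper limits in place of undetected signals, against 21.2% of all miRNAs. Without normalization all 7 were, against 55.8% of all miRNAs. Of 5 pancreas miRNAs, 1 was detected in each group: mmu-miR-148a-3p in MPDC-exosomes and mmu-miR-217-5p in KPC-exosomes.

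Muscle and erythroid miRNAs were found in both kinds of exosomes, and the liver miRNA, at 3 errors, in MPDC-exosomes alone. In KPC-exosomes 4 of the 8 members were detected: mmu-miR-133a-3p, mmu-miR-133b-3p, mmu-miR-206-3p and mmu-miR-451a. Over all miRNAs 41.0% were detected there. With detection at 5 errors, or with 50% or more of the spots of a probe well above background, the miR-133 pair was lost in KPC-exosomes and 2 members remained, mmu-miR-206-3p and mmu-miR-451a. At 2 errors 5 members were detected there, since mmu-miR-122-5p joined. In MPDC-exosomes 7 of the 8 were detected, against 54.8% of all miRNAs. mmu-miR-144-3p was detected in neither, and mmu-miR-1a-3p, mmu-miR-499-5p and mmu-miR-122-5p in MPDC-exosomes alone.

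**Figure D1:**
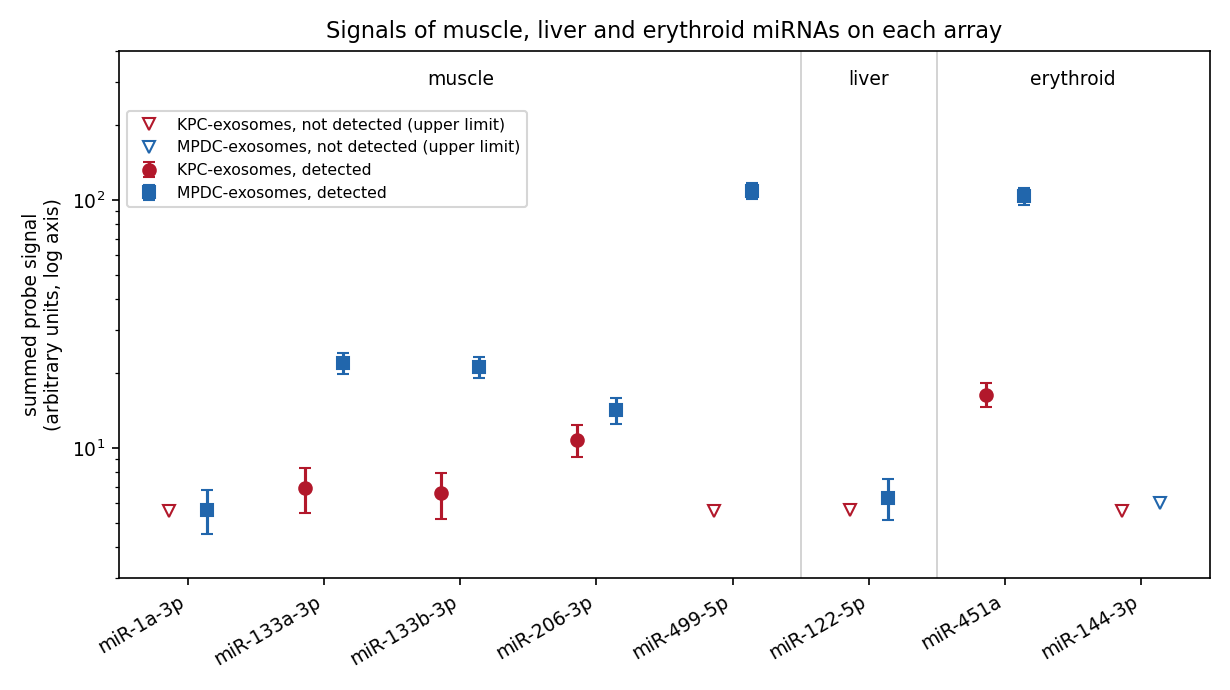
Summed probe signal (arbitrary units, log axis) of each member in KPC-exosomes (circles) and MPDC-exosomes (squares), with the scanner error as bars and open triangles for the upper limit of members that were not detected. miR-499-5p and miR-451a stand at 109 and 104 in MPDC-exosomes, while no member exceeds 16.4 in KPC-exosomes.

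Among the muscle members, the widest gap between the groups was that of mmu-miR-499-5p, which is encoded with a slow-type myosin. Its signal was 109 ± 7.90 in MPDC-exosomes, where both probes were detected. In KPC-exosomes its probes read -0.21 and 0.29 against detection thresholds of 2.78 and 2.79. None of its 30 spots in KPC-exosomes exceeded the 99th percentile of the negative controls, and all 30 did in MPDC-exosomes, so the spots of the groups did not overlap for either probe. The limit for an undetected member was taken as the highest of the lowest detected signal of the array, the member's own sum over its probes, and the sum of its probes' thresholds. For mmu-miR-499-5p that limit was 5.57. The signal was thus at least 19.6-fold lower in KPC-exosomes before normalization and at least 5.23-fold lower after quantile normalization, which places the limit on the same curve as the measured signals.

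mmu-miR-206-3p, the skeletal muscle member, was detected by both probes on both arrays. Its signal was 10.8 ± 1.56 in KPC-exosomes against 14.2 ± 1.74 in MPDC-exosomes, a log2 difference of -0.39 with a scanner error of 0.27. The 2 probes did not give the same picture. The shorter probe gave a log2 difference of -1.12, and its spots did not overlap between the arrays, with medians of 10.4 and 22.9. In KPC-exosomes that probe read 2.94, barely above its threshold of 2.93, and 0 of its 15 spots were well above background. The longer probe gave 0.01, with spot medians of 27.8 and 29.7 and overlapping spots. The groups were therefore close by the longer probe and lower in KPC-exosomes by the shorter one.

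After quantile normalization the same member stood 16.3-fold higher in KPC-exosomes, a log2 difference of 4.02. This sign was opposite to that of the signals themselves. Quantile normalization gives the values of each array, rank by rank, the mean of both arrays, and 1120 features of the KPC-exosome array were at the floor of 0.1 that stands for no detection. The MPDC-exosome features of the same ranks were averaged with that floor. mmu-miR-206-3p had rank 1108 of 1902 in MPDC-exosomes, among those ranks, and its log2 value there moved by -3.58, while in KPC-exosomes it moved by 0.84. The highest MPDC-exosome signal in that zone was 14.8, and the next rank up, with almost the same signal, stood 1.91 higher on the normalized log2 scale.

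**Figure D2:**
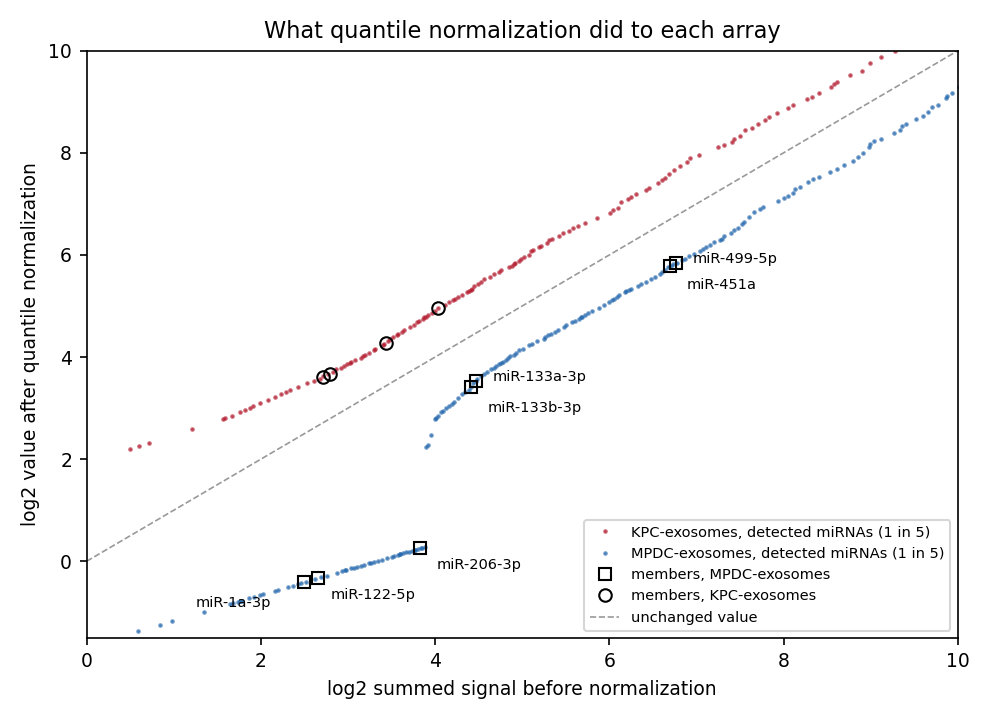
Log2 value after quantile normalization against the log2 summed signal before it, for a subset of the detected miRNAs of each array (dots), with the members as open circles (KPC-exosomes) and open squares (MPDC-exosomes). The MPDC-exosome curve breaks at a signal of about 14.8, and mmu-miR-206-3p, mmu-miR-122-5p and mmu-miR-1a-3p lie below the break while mmu-miR-133a-3p and mmu-miR-133b-3p lie above it.

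mmu-miR-133a-3p and mmu-miR-133b-3p, which act on proliferation and differentiation of myoblasts, gave nearly the same values. The probes of this pair share a run of 17 bases, so each probe may take up the other miRNA and the 2 values are not independent. In KPC-exosomes at most 1 of the 15 spots of each of their probes was well above background. mmu-miR-133a-3p had a signal of 6.91 ± 1.40 in KPC-exosomes and 22.1 ± 2.12 in MPDC-exosomes. mmu-miR-133b-3p had 6.57 ± 1.40 and 21.3 ± 2.07. The log2 differences were -1.68 ± 0.32 and -1.70 ± 0.34, so both were lower in KPC-exosomes by more than the scanner error. The spots of the groups did not overlap for any of the 4 probes, though the share over all probes is not known. The differences were close to the median of the 726 shared miRNAs (-1.37). After quantile normalization they were 0.14 and 0.20, within 1 scanner error of 0 and below the shared median of 0.53, and their ranks in MPDC-exosomes lay above the zone of the floor.

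mmu-miR-1a-3p, the partner of miR-133 in muscle, was at the edge of detection. In MPDC-exosomes its longer probe read 5.64 ± 1.15 and its shorter probe -0.33, so 1 of the 2 probes was detected. The spots of the longer probe ran from 16.8 to 26.7 processed units there, and those of the shorter probe from -3.69 to 2.43. In KPC-exosomes the probes read -0.57 and -0.37, and none of the 30 spots exceeded the 99th percentile of the negative controls. The limit there, summed over both probes, was 5.57, so the signal of 5.64 in MPDC-exosomes was only 1.01 times that limit. By the longer probe alone, the signal of 5.64 stood against a threshold of 2.78 in KPC-exosomes. The spots of that probe did not overlap between the groups. Probes of mmu-miR-1a-3p share a run of 13 bases with those of mmu-miR-1b-3p, which was not detected on either array.

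**Figure D3:**
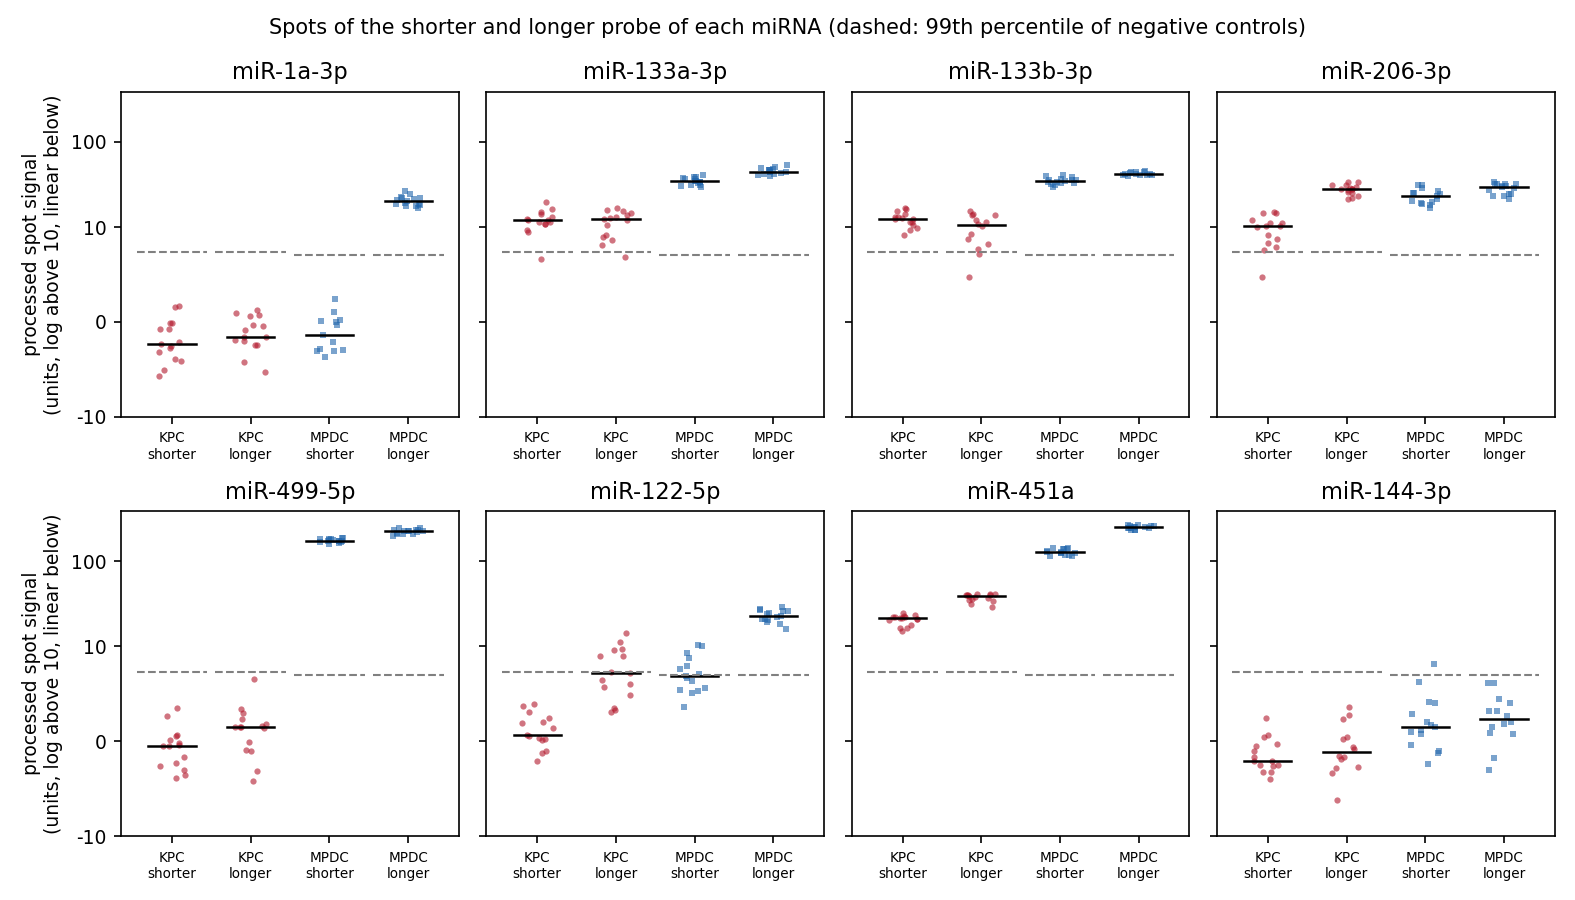
Processed signals of the single spots (units, log scale above 10 and linear below) of the shorter and longer probe of each member on each array, without spots marked as outliers, with medians as black lines and the 99th percentile of the negative control spots dashed (7.33 in KPC-exosomes, 7.01 in MPDC-exosomes). For miR-1a-3p in MPDC-exosomes only the longer probe lies above the controls, and for miR-144-3p the medians of all 4 sets of spots lie below them.

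The liver member mmu-miR-122-5p was likewise seen by 1 probe in 1 group. In MPDC-exosomes its longer probe read 6.32 ± 1.18 and its shorter probe 1.94, below its threshold of 3.05. In KPC-exosomes the probes read 2.09 and 0.31, both below threshold, and 6 of 30 spots exceeded the 99th percentile of the negative controls, against 22 of 30 in MPDC-exosomes. The limit in KPC-exosomes, summed over both probes, was 5.65. The signal in MPDC-exosomes was only 1.12 times that limit, and after normalization no bound could be given. By the longer probe alone, the signal of 6.32 stood against 2.09 in KPC-exosomes, which was below its threshold of 2.86. The spots of that probe did not overlap between the groups. When 2 errors sufficed for detection, KPC-exosomes passed as well with 2.09 ± 0.95. The signals then differed by -1.60 on the log2 scale, and by 2.67 after quantile normalization, the same change of sign as for mmu-miR-206-3p.

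The erythroid member mmu-miR-451a was detected by both probes in both groups and was lower in KPC-exosomes. Its signal was 16.4 ± 1.79 in KPC-exosomes against 104 ± 7.83 in MPDC-exosomes, a 6.31-fold difference. The log2 difference was -2.66 ± 0.19, and the 2 probes gave -2.60 and -2.69. The spots of the groups did not overlap: those of the longer probe ran from 29.3 to 41.2 in KPC-exosomes and from 228 to 264 in MPDC-exosomes. After quantile normalization the log2 difference was -0.82, a 1.77-fold difference that did not reach 2-fold, and it stood -1.35 from the median of the shared miRNAs. The 2-fold line was passed with scaling by the median of the shared miRNAs (-1.03) or by their 75th percentile (-1.11). It was also passed with quantiles over the shared miRNAs alone (-1.18), but not with normexp background correction (-0.42). The share of serum in the growth medium was the higher one in the KPC line, 20% against 10%, and its part in the signal of this serum miRNA was not tested.

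mmu-miR-144-3p, which shares its transcript with miR-451a, was not detected in either group. Its probes read -0.42 and -0.25 in KPC-exosomes and 0.52 and 0.63 in MPDC-exosomes, all below their thresholds, of which the lowest was 2.78. At most 1 of its 29 usable spots on an array exceeded the 99th percentile of the negative controls. The upper limit was 5.57 in KPC-exosomes and was 5.99 in MPDC-exosomes. A single spot in KPC-exosomes read 45.9 and had been marked as an outlier by the software.

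By the filter of the study's methods, detection on at least 1 array and a 2-fold difference after normalization, 1 of the 7 detected members was higher in KPC-exosomes (mmu-miR-206-3p), against 31.5% of the 1077 miRNAs seen in either group. By the same filter 3 of the 7 were lower (mmu-miR-1a-3p, mmu-miR-499-5p and mmu-miR-122-5p), against 42.7%. All 3 of these were undetected in KPC-exosomes, and their differences were set by the floor. With undetected signals at their limit, mmu-miR-499-5p was the only lower member, 1 of 7 against 21.2% of all, and the share of all miRNAs that were higher stayed at 31.5%. Without normalization and with limits, no member was 2-fold higher, against 8.73% of all miRNAs, and 4 of 7 were 2-fold lower (mmu-miR-133a-3p, mmu-miR-133b-3p, mmu-miR-499-5p and mmu-miR-451a), against 55.8%. The counts of the members thus lay near or below those of all miRNAs in the higher direction and near them in the lower.

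**Figure D4:**
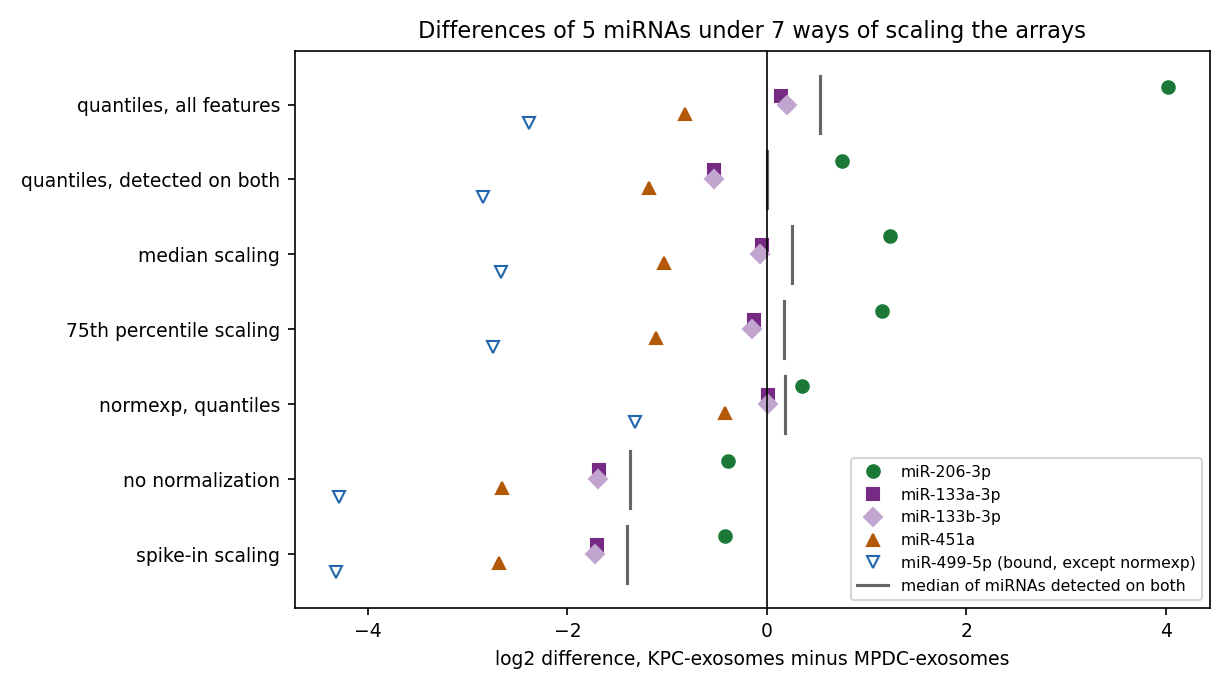
Log2 difference between KPC-exosomes and MPDC-exosomes of 5 members under 7 ways of scaling the arrays, with the median of the 726 shared miRNAs as a grey bar. mmu-miR-206-3p runs from 4.02 with quantiles over all features to -0.42 with spike-in scaling and lies above the median each time, while mmu-miR-451a and mmu-miR-499-5p lie below 0 and below the median each time.

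Of these 7 ways, 4 (none, median, 75th percentile and spike-in) shift all miRNAs alike, so distances from the median are the same in them by construction. Relative to the median of the shared miRNAs, mmu-miR-206-3p stood at 3.49 on the log2 scale with quantiles over all features, at 0.98 with no normalization and at 0.17 with normexp background correction. mmu-miR-451a stood at -1.35, -1.29 and -0.60 on the same scales, and mmu-miR-133a-3p at -0.39, -0.31 and -0.17. The bound of mmu-miR-499-5p stood at -2.92 both with and without quantile normalization.

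The other arms of the members' precursors and further miRNAs of the same tissues were read in the same way. None of the 8 opposite arms (of miR-1a, from both precursors, and of miR-133a, miR-133b, miR-206, miR-499, miR-122 and miR-144) was detected on either array. Of 15 further muscle miRNAs and arms, 3 were detected on at least 1 array, against 57.3% of all miRNAs. The 15 include the opposite arms of miR-1a, miR-133a, miR-133b, miR-206 and miR-499 counted above, so the 2 counts are not separate results. All 3 had the lower signal in KPC-exosomes, as did 81.4% of the 726 shared miRNAs. mmu-miR-208a-5p, from a precursor within a heart myosin gene, read 21.2 ± 2.02 in KPC-exosomes and 62.7 ± 4.67 in MPDC-exosomes, and its log2 difference was 0.25 after quantile normalization. The opposite arm of that precursor was not detected on either array. mmu-miR-378a-3p, a miRNA of oxidative tissues, read 112 ± 8.06 and 952 ± 68.5. Its opposite arm mmu-miR-378a-5p was detected in MPDC-exosomes alone, at 24.1 ± 2.29.

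Of 8 further liver miRNAs and arms, 6 were detected on at least 1 array, against 57.3% of all miRNAs. Of the 6, 3 were at least 2-fold higher in KPC-exosomes without normalization, where 8.73% of all miRNAs were. These 3 were arms of miR-192 and miR-194, which are also made in intestinal epithelium. mmu-miR-192-5p read 5367 ± 422 in KPC-exosomes and 1240 ± 99.01 in MPDC-exosomes, and mmu-miR-194-5p read 1251 ± 102 and 315 ± 25.8. mmu-miR-194-1-3p was detected in KPC-exosomes alone, at 119 ± 12.3, at least 19.8-fold higher than in MPDC-exosomes before normalization. That signal came from 1 of its 2 probes, and the sum over both was 118, so the other probe added nothing. mmu-miR-192-3p, by 1 of its 2 probes, and mmu-miR-802-5p were also detected in KPC-exosomes alone. Their signals of 9.85 and 9.71 were only 1.64 and 1.63 times their limits in MPDC-exosomes. mmu-miR-194-2-3p was detected in MPDC-exosomes alone, by 1 of 2 probes, with 5.35. That lay below its limit of 5.63 in KPC-exosomes, so no difference could be given. The other 2 of the 8, among them the opposite arm of miR-122 counted above, were not detected.

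Of 7 further erythroid miRNAs and arms, among them the opposite arm of miR-144 counted above, 6 were seen in either group, against 57.3% of all miRNAs. Of the 6, 5 were at least 2-fold lower in KPC-exosomes without normalization, where 55.8% of all miRNAs were. mmu-miR-486a-5p, an abundant red cell miRNA, read 14.2 ± 1.66 in KPC-exosomes and 49.3 ± 3.78 in MPDC-exosomes. mmu-miR-16-5p and mmu-miR-92a-3p, which are also made in most other cells, read 1058 and 2981 in KPC-exosomes and 8572 and 21115 in MPDC-exosomes. mmu-miR-451b was detected in MPDC-exosomes alone at 14.9 ± 1.80. mmu-miR-486b-3p had signals of 3.53 and 13.6, and its log2 difference went from -1.94 to 2.74 under quantile normalization, so it changed sign as mmu-miR-206-3p did. mmu-miR-486a-3p was detected in KPC-exosomes alone at 7.07, close to its limit in MPDC-exosomes.

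**Figure D5:**
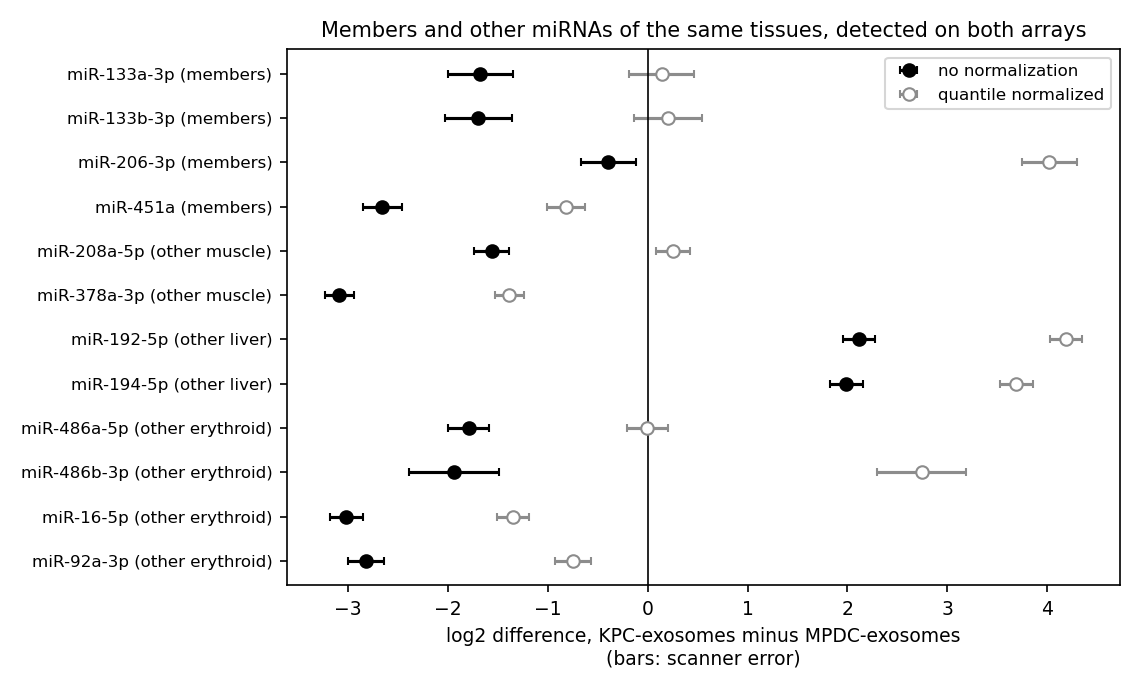
Log2 difference between KPC-exosomes and MPDC-exosomes of the members and of the further muscle, liver and erythroid miRNAs detected on both arrays, before (filled) and after (open) quantile normalization, with the scanner error as bars. Before normalization mmu-miR-192-5p and mmu-miR-194-5p lie above 0 and the other 10 below it, and mmu-miR-206-3p and mmu-miR-486b-3p move farthest with the normalization.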

How the data were processed

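1 Agilent mouse miRNA array (1 colour, Cy3) was hybridised per exosome sample, both on the same slide. The authors isolated exosomes by ultracentrifugation and RNA with a mirVana kit, and per the labels 0.5 µg of RNA was labelled. The deposited scanner files hold background-subtracted intensity values on a linear scale. Their header names Feature Extraction 10.7.1.1, while the submitters' processing notes name version 9.1. A table of log2 values per miRNA, which the authors made in GeneSpring, was deposited too, with the normalization not given in the sources used here.

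Total signals of probes above 3 errors were summed per miRNA, undetected miRNAs were set to 0.1, log2 was taken, and the 1881 miRNAs and 21 control features were quantile normalized. The result differed from the deposited log2 values by at most 1.11e-05. This step takes both arrays to have equal signal distributions. Samples were grouped by their labels. No test was made with 1 array per group, and no replicate spread is known. Probes whose sequences share 12 or more bases were looked for. RefSeq sequences came from GRCm38.p6. The named miRNAs were the 8 members, the detected miRNAs of the tissue lists, and those sharing a probe run, plus 4 picked out later by a shared seed or a matching signal. The members and lists were chosen with earlier results of these data known. Alternatives covered the normalization, signal, background, probe summary, floor, threshold and detection rule. normexp used limma 3.58.1 in R 4.3.3 with an offset of 50, and the rest Python 3.11.15, numpy 2.4.6 and pandas 2.3.3. The quantile step was tested on simulated data.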

Additional observations from a re-analysis of the deposited data

How the results depend on the processing

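There was 1 array per group, so no sample could be left out, and no paired analysis was possible because the result comes from no test and each group holds 1 sample. The number of members detected in MPDC-exosomes was 6 or 7 of 8 under the 4 other detection rules. In KPC-exosomes it was 2 when detection asked for 5 errors and 2 when it asked for 50% or more of the spots of a probe to be well above background (mmu-miR-206-3p and mmu-miR-451a), against 4. It was 5 there when 2 errors sufficed, with mmu-miR-122-5p added. The number of members at least 2-fold higher in KPC-exosomes went from 1 to 0 with no normalization, with spike-in scaling, with quantiles over the shared miRNAs alone, with normexp, and with limits and no normalization. It was 2 when 2 errors sufficed, since mmu-miR-122-5p joined. The number at least 2-fold lower was 3. It was 6 with no normalization and 6 with spike-in scaling, 1 with normexp, 1 with a floor at the lowest detected signal, 1 with undetected signals at their limit, and 0 when detection on both arrays was required. It was 4 with median scaling, 75th percentile scaling or quantiles over the shared miRNAs, since mmu-miR-451a joined. At 5 errors it was also 4, with the miR-133 pair added and mmu-miR-1a-3p lost. With limits and no normalization it was 4. It was 2 at 2 errors and with the sum over all probes, where mmu-miR-122-5p dropped out. The log2 difference of mmu-miR-206-3p reversed from 4.02 to -0.39 with no normalization and to -0.42 with spike-in scaling, and lay between 0.35 and 4.12 otherwise. The bound or value of mmu-miR-499-5p and the value of mmu-miR-451a stayed below 0 under all 15 settings, from -8.88 to -1.32 and from -2.68 to -0.42. mmu-miR-133a-3p was below 0 under 7 of 14 settings, from -1.70 to 3.25, and mmu-miR-133b-3p under 6 of 14, from -1.72 to 3.23, the highest values being those with the written total per miRNA. mmu-miR-144-3p was detected on neither array, and no bound could be given for mmu-miR-1a-3p and mmu-miR-122-5p after quantile normalization at 3 errors. With normexp these 2 stood at -0.13 and 0.04, and their limits at -0.02 and -0.16 with no normalization and at -0.04 and -0.19 with spike-in scaling. The cause of these changes was not tested beyond the zone of the floor described above. The use of limits in the counts, and the written total per miRNA, were chosen after seeing the data. Signal over background left mmu-miR-144-3p with no value and mmu-miR-1a-3p and mmu-miR-122-5p with no 2-fold bound over both probes. The signals of mmu-miR-1a-3p and mmu-miR-122-5p, 5.64 and 6.32 in MPDC-exosomes, lay at the limits of 5.57 and 5.65 in KPC-exosomes.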

Other observations

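The scanner files also hold a written total per miRNA, which differed from the sum over the detected probes by more than a relative tolerance of 0.001 for 143 miRNAs in KPC-exosomes and 182 in MPDC-exosomes. Among the members this touched mmu-miR-1a-3p and mmu-miR-122-5p in MPDC-exosomes. For mmu-miR-1a-3p the written total was 35035 against a sum of 5.64, and the excess of 35029 equalled, within a relative tolerance of 1e-05, the signal of mmu-miR-19b-3p. For mmu-miR-122-5p the written total was 21.1 against a sum of 6.32, and the excess of 14.8 equalled the signal of mmu-miR-1199-5p within the same tolerance. Both named partners were picked out after their values were seen, by the match alone. The deposited log2 values followed the sums and not the written totals.

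By their RefSeq sequences, 2 further miRNAs on the array carry the seed of mmu-miR-206-3p, and they were picked out for that match. mmu-miR-1a-3p, of the same seed family, had no matched sequence and so was not counted there. mmu-miR-6349 read 102 ± 8.22 in KPC-exosomes against 107 ± 9.29 in MPDC-exosomes, a log2 difference of -0.08 before normalization and 1.72 after it. mmu-miR-6382 was not detected in KPC-exosomes and read 5.15 ± 1.01 in MPDC-exosomes.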
